A study of Mus musculus with 12 samples.

Results

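The genes described here are those by which a mouse cell makes cholesterol and fatty acids, together with the regulators that set their transcription. All 33 were taken from a list of names: 6 regulators and sterol transport genes, 18 enzymes of the sterol branch and 9 enzymes of the fatty acid branch. Every probe set of the array whose only platform symbol was one of these names was used, and sets with several symbols were left out. The rule itself reads no measured value, but the list was drawn up with earlier results of these data known. Of the 33 genes, 32 had a probe set under their symbol alone (Acat2, a cytosolic thiolase, had none). Of these, 31 were tested among the 11815 genes of the array that passed a filter on low signal. Scd1, a stearoyl-CoA desaturase, did not pass that filter, with signals between 6.43 and 105 over its 2 probe sets and 12 arrays. The 32 genes were covered by 74 probe sets, of which 60 were tested.

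Messenger RNA of blood cells was measured on 12 single-colour arrays. Mice that kept Stat5a and Stat5b are called control, and mice whose blood cells lacked both genes are called knockout. STAT5A and STAT5B are the transcription factors that carry cytokine signals such as that of GM-CSF to the nucleus. Each genotype was measured without and with a treatment, which gave 4 groups of 3 arrays, named by genotype and by whether the cells were treated or untreated. The labels name the treatment with the letters GMP, which could stand for an agent or for granulocyte-macrophage progenitors, so it is called only the treatment. They give no dose, duration, strain, age or Cre driver, and they tie no array to an animal. The p-values therefore describe the scatter among these arrays, some of which may be technical. In a mixed population, fewer cells of a type and less RNA per cell cannot be told apart.

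Transcription of these genes is set mainly by the SREBP factors, encoded by Srebf1 and Srebf2. They are made as membrane proteins of the endoplasmic reticulum and bind the escort protein SCAP. When membranes hold enough sterol, INSIG proteins retain SCAP there. When sterol falls, SCAP carries SREBP to the Golgi, where proteases free the part that enters the nucleus. The Srebf2 product acts mostly on the sterol branch and the main Srebf1 product of many tissues mostly on the fatty acid branch. The sterol branch runs from acetyl units through mevalonate to farnesyl diphosphate, and from there through squalene and lanosterol to cholesterol. The fatty acid branch turns cytosolic acetyl units into palmitate, which is then elongated and desaturated. Myeloid progenitors that divide quickly need both products for new membrane.

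Promoter sequence was examined because many sterol genes moved together. RefSeq windows of 250 bases that end just before the transcription start were found for 26 of the 33 members, 35 windows in all, on build GRCm38.p6. No window was found for Stard4, Fdps, Fdft1, Sqle, Scd1, Scd2 and Fads1. Both strands were searched for TCACNCCAC, a form of the sterol regulatory element that SREBP binds, for CCAAT, the box of the factor NF-Y, for GGGCGG, the GC box of Sp factors, and for TTCNNNGAA, the element of STAT proteins. The 6 windows shown are those of 5 genes that rose on treatment in both genotypes and, for contrast, of Fasn, the fatty acid synthase. They lie at chr5:28071162-28071411 on the plus strand (Insig1), chr13:119690101-119690350 on the plus strand (Hmgcs1), chr13:8885356-8885605 on the plus strand (Idi1), chr5:4104698-4104947 on the minus strand (Cyp51), chr8:64733579-64733828 on the minus strand (Msmo1) and chr11:120824548-120824797 on the minus strand (Fasn). Each is written 5′ to 3′ along the gene, and capitals mark matches to TCACNCCAC or to CCAAT, the latter read as ATTGG on the opposite strand.
Insig1: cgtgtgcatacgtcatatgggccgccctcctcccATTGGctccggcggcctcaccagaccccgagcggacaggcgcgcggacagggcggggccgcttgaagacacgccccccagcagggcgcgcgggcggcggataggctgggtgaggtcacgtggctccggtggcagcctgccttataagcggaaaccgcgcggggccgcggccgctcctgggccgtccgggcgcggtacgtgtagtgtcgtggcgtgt
Hmgcs1: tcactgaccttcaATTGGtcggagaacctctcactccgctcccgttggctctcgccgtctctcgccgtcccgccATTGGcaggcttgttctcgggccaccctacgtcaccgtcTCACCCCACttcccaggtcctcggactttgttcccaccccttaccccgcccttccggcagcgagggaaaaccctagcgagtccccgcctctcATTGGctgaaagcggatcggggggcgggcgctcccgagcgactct
Idi1: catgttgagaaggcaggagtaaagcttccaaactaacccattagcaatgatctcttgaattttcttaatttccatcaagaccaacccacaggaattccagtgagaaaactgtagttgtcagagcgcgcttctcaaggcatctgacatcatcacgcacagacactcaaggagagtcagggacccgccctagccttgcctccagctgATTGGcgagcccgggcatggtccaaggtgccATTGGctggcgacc
Cyp51: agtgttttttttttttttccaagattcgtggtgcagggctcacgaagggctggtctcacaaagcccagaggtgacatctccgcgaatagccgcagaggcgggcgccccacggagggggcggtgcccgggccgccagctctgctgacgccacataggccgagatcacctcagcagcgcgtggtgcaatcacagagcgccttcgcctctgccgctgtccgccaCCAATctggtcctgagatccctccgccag
Msmo1: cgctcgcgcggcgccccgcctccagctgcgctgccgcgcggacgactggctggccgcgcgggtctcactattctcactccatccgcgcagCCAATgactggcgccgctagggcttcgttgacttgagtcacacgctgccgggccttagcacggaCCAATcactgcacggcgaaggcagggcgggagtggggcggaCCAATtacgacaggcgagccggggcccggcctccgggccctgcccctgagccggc
Fasn: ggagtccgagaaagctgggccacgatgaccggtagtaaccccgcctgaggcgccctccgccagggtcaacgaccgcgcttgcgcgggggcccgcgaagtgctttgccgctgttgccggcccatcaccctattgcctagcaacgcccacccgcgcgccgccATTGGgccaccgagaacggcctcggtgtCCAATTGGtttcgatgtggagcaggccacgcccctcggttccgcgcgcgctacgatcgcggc

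CCAAT matched in 21 of the 35 member windows, and in 33.8% of all 32851 promoter windows of that length in the table. By gene, it matched in 14 of 15 sterol enzymes, 4 of 5 regulators and 2 of 6 fatty acid enzymes that had a window. A gene with several start sites had several chances of a match. In the Fasn window a CCAAT and an ATTGG overlap. TCACNCCAC matched in 1.05% of all windows and in 1 member, Hmgcs1, at bases -137 to -129 from the start site. GGGCGG matched in 32.7% of all windows and in 22 of the 26 members. TTCNNNGAA matched in 7.02% of all windows and in 1 member, Ebp, at bases -85 to -77. These matches describe the letters in the windows and are no measure of binding.

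The arrays of date 2 stood apart from those of the other dates. The labels place the arrays on 3 dates, numbered 1 to 3 here, with 1 array of each group on every date. The ratio of 3′ to 5′ signal of Actb, a sign of RNA or label length, lay between 20.8 and 266 on date 2 and between 1.14 and 2.05 on the others, and that of Gapdh between 28.2 and 80.7 against 1.56 to 3.9. On date 2 the Actb ratio was 59.5 on the untreated and 266 on the treated control array. It was 28.7 on the untreated and 20.8 on the treated knockout array. The date entered the fit as a block, which does not remove differences between arrays of the same date. Values without date 2 are given where they changed a call or turned the sign of a member's response to treatment. Stat5a signal was at least 375 on every control array and at most 101 on every knockout array, and Stat5b at least 287 against at most 60.5.

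In control cells the treatment raised 8 of the 31 tested members and lowered none, at an adjusted p under 0.05 in limma with Benjamini-Hochberg adjustment over all genes. Of all genes tested 6.98% were called, 4.37% higher and 2.62% lower. The 8 were Insig1 and 7 of the 17 tested sterol enzymes: Hmgcs1, Mvd, Idi1, Fdft1, Cyp51, Msmo1 and Hsd17b7. None of the 8 fatty acid enzymes was called. The median log2 change was 0.74 over the sterol enzymes, 0.20 over the fatty acid enzymes and 0.52 over the regulators, beside -0.03 over all genes. At an unadjusted p under 0.05 there were 13 higher and 2 lower members, where 23.3% of all genes passed that mark. The treated array was the higher on all 3 dates for 16 members, as for 23.7% of all genes.

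In knockout cells the treatment raised 10 members and lowered none, with 11.5% of all genes called, 6.89% higher and 4.65% lower. These were Insig1, Stard4 and 8 sterol enzymes: Hmgcs1, Idi1, Fdft1, Sqle, Cyp51, Msmo1, Hsd17b7 and Sc5d. Again 0 of the 8 fatty acid enzymes passed. The median log2 change was 0.70 over the sterol enzymes, 0.01 over the fatty acid enzymes and 0.54 over the regulators, beside -0.02 over all genes. At an unadjusted p under 0.05 there were 14 higher and 3 lower members, where 27.3% of all genes passed. The treated array was the higher on all 3 dates for 18 members, as for 24.6% of all genes. Over the 60 tested member probe sets, 11 were called in control and 18 in knockout cells, beside 4.7% and 8.66% of all probe sets. The 2 genotypes shared 7 called members, which is 87.5% of the calls in control cells and 70% of those in knockout cells. Of the 31 members, 26 had the same sign in both, and 76.2% of all genes did. The comparisons within the 2 genotypes use different arrays but 1 common estimate of the spread.

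Both counts depend on the date block and on single arrays. Without the block 3 members passed in each genotype (Insig1, Cyp51 and Msmo1), where 1.23% of all genes were called higher in control and 2.12% in knockout cells. In control cells the count was 4 without the untreated control array of date 3 and 5 without the treated control array of date 1, where 1.77% and 2.29% of all genes were called higher. In knockout cells it was 6 without the untreated knockout array of date 2 (4.21% of all genes) and 5 without that of date 3 (3.07%). It was 6 without the treated knockout array of date 2 (3.94%) and 5 without that of date 3 (3.82%). The share over all genes thus fell in these fits too. Without all of date 2 the count was 9 in each genotype, with 6.03% of all genes called higher in control and 6.95% in knockout cells.

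**Figure D1:**
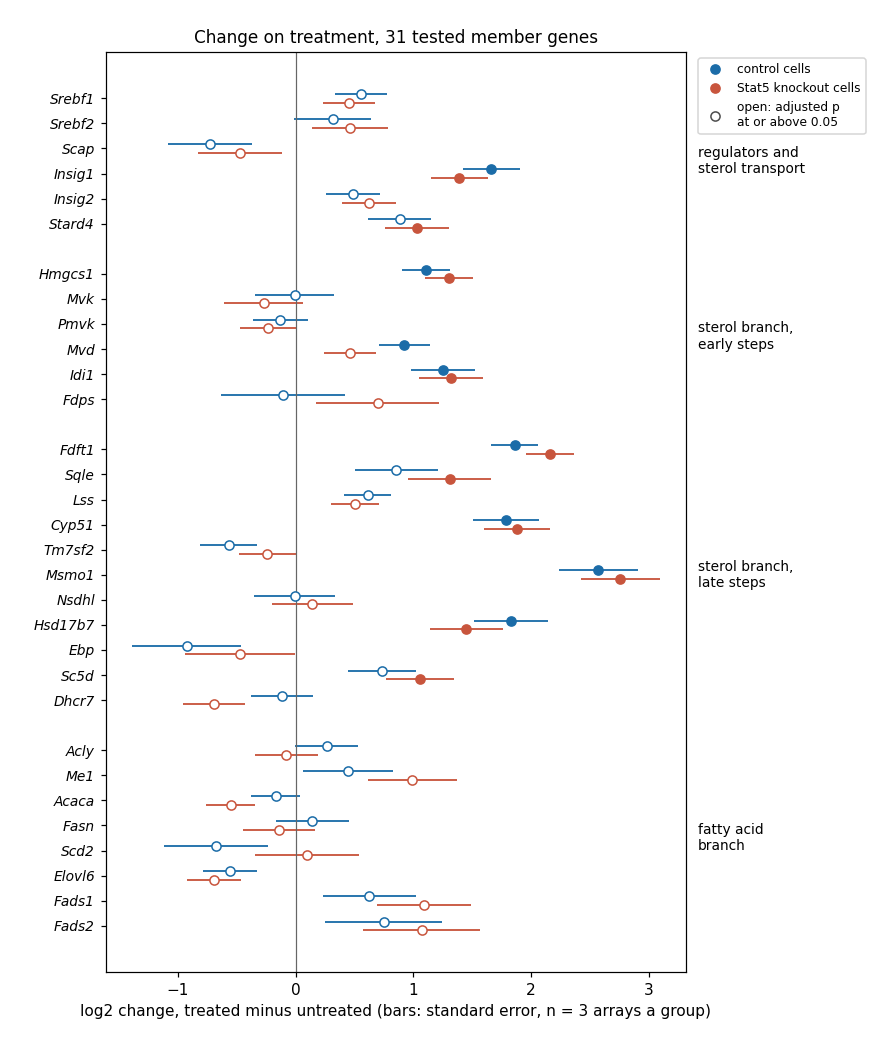
Log2 change on treatment (horizontal axis) of the 31 tested members, in control cells (blue) and Stat5 knockout cells (red), with bars for the standard error of the fit and 3 arrays a group. Filled points passed adjusted p 0.05: 8 in control and 10 in knockout cells, all to the right of 0 and none of them in the fatty acid branch.

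The regulators were led by Insig1, which encodes the protein that retains SCAP and is itself a known SREBP target. Its signal was 758, 712 and 749 on the untreated control arrays of dates 1 to 3 and 1740, 3170 and 2390 on the treated ones. In knockout cells it was 754, 614 and 699 untreated and 1510, 2050 and 1930 treated. Every treated array was above every untreated array in both genotypes, by at least the span of the untreated values. The log2 change was 1.66 ± 0.24 (SE) in control cells (adjusted p = 0.00459) and 1.39 ± 0.24 in knockout cells (adjusted p = 0.00738). Insig1 kept its call in all 24 alternative settings in both genotypes.

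Stard4, a cytosolic sterol carrier, rose in knockout cells. There it read 1450, 941 and 1550 untreated and 1770, 2550 and 4090 treated, with no overlap. The log2 change was 1.03 ± 0.27 (adjusted p = 0.0361), but the call was lost without date 2 (0.84, adjusted p = 0.118), with arrays centred on their median (adjusted p = 0.0542), with the mean of its 3 probe sets (0.0795), with no filter (0.0724) and with only the groups compared (0.105). It was also lost without the untreated control array of date 3, the treated control arrays of date 1 or 3, the knockout untreated arrays of date 2 or 3, or the knockout treated arrays of date 2 or 3, with adjusted p up to 0.145. In control cells Stard4 read 1870, 1430 and 1970 untreated and 2630, 3240 and 3930 treated, again without overlap. The change there was 0.88 ± 0.27 and did not pass (adjusted p = 0.0797), though it did with a trended and robust prior (0.0487).

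The SREBP genes themselves did not pass the test. Srebf1 read 1110, 3080 and 807 on the untreated and 1510, 4110 and 1420 on the treated control arrays, and 1030, 2220 and 1050 against 1220, 3500 and 1460 in knockout cells. Treated arrays were above the untreated array of their date in all 6 pairs, while the groups overlapped because date 2 was high throughout. The log2 changes were 0.55 ± 0.22 (adjusted p = 0.165) and 0.45 ± 0.22 (adjusted p = 0.218). Srebf2 read 489, 85.3 and 445 untreated and 480, 134 and 585 treated in control cells, and 341, 153 and 319 against 441, 254 and 408 in knockout cells. On this probe set, the one used for the gene, values were lowest on date 2 in every group, and the groups overlapped. The changes of Srebf2 were 0.31 ± 0.33 (adjusted p = 0.62) and 0.46 ± 0.33 (adjusted p = 0.401). A second Srebf2 set had 0.274 ± 0.506 in control and 1.2 ± 0.506 in knockout cells (adjusted p over probe sets = 0.809 and 0.172). In knockout cells that set read 286, 72.5 and 203 untreated and 590, 300 and 343 treated, without overlap. Its control groups overlapped.

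Insig2, the second INSIG gene, had changes of 0.49 ± 0.23 in control and 0.62 ± 0.23 in knockout cells, with adjusted p-values of 0.242 and 0.113. Scap, the escort of SREBP, was the only regulator with negative estimates, -0.73 ± 0.36 and -0.47 ± 0.36 (adjusted p = 0.256 and 0.442). Its treated array was below the untreated array of the same date in all 6 pairs, while the groups overlapped. Activity of SREBP proteins was not measured, since the arrays read messenger RNA only.

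Among the early sterol enzymes, Hmgcs1, the cytosolic HMG-CoA synthase that makes the precursor of mevalonate, rose in both genotypes. It read 3810, 12100 and 4920 untreated and 8580, 25000 and 10600 treated in control cells. In knockout cells it read 3520, 8840 and 5840 untreated and 9230, 24600 and 12100 treated. Each treated array was above its untreated partner of the same date, and the control groups overlapped only through the high untreated array of date 2. The log2 changes were 1.11 ± 0.21 (adjusted p = 0.0126) and 1.30 ± 0.21 (adjusted p = 0.00433). The control call was lost without the untreated control arrays of date 1 or 3 (adjusted p = 0.0627 and 0.0799), without the treated control array of date 1 (0.0569) and with only the groups compared in the fit (0.0552). In the fit over probe sets all 5 Hmgcs1 sets passed in knockout cells, with changes from 1.30 to 2.25, and 2 of the 5 passed in control cells (adjusted p = 0.0205 and 0.00617, the others 0.188, 0.242 and 0.412).

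Idi1, the isopentenyl diphosphate isomerase, also rose in both. Its signal was 1840, 698 and 1100 untreated and 3780, 1420 and 3580 treated in control cells, and 1470, 796 and 1210 against 2700, 2270 and 3660 in knockout cells. The knockout groups did not overlap, and in control cells the treated array of date 2 fell below the untreated array of date 1. The changes were 1.25 ± 0.27 (adjusted p = 0.0256) and 1.32 ± 0.27 (adjusted p = 0.0148). The control call was lost without the untreated arrays of date 2 or 3 (adjusted p = 0.0922 and 0.131), without the treated arrays of date 1 or 3 (0.0947 and 0.114), with only the groups compared (0.0616) and with no filter (0.0539). The knockout call was lost without the untreated arrays of date 1 or 3 (0.0554 and 0.0731) or the treated arrays of date 2 or 3 (0.059 and 0.0682). Its other probe set varied less between dates and passed in both, at 1.36 ± 0.22 and 1.43 ± 0.22 (adjusted p over probe sets = 0.0085 and 0.00466).

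Mvd, the mevalonate diphosphate decarboxylase, was called in control cells alone. It read 237, 162 and 228 untreated and 388, 304 and 550 treated there, without overlap, and 250, 211 and 334 against 290, 351 and 472 in knockout cells, with overlap. The changes were 0.92 ± 0.22 (adjusted p = 0.0356) and 0.46 ± 0.22 (adjusted p = 0.206). The difference of the 2 responses was -0.46, with a 95% confidence interval from -1.15 to 0.23 (adjusted p = 1), so a difference between genotypes was not shown. The control call was lost without any 1 of 8 arrays, with adjusted p up to 0.16: all 3 untreated control arrays, the treated control arrays of dates 1 and 3, the untreated knockout arrays of dates 1 and 3 and the treated knockout array of date 3. It was also lost with no filter (0.0774) and with only the groups compared (0.0828).

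The other early enzymes did not pass in either genotype. Mvk, the mevalonate kinase, had changes of -0.01 ± 0.34 and -0.27 ± 0.34, and Pmvk, the phosphomevalonate kinase, of -0.13 ± 0.24 and -0.24 ± 0.24. Fdps, the farnesyl diphosphate synthase, had -0.11 ± 0.53 in control and 0.70 ± 0.53 in knockout cells. Without date 2 the control estimates turned positive, to 0.17 for Mvk, 0.0022 for Pmvk and 0.11 for Fdps (adjusted p at least 0.743). Its signal on the control arrays of date 2 was 168 and 110, against 935 to 1220 on the other control arrays.

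The late sterol enzymes held the largest changes of the members. Msmo1, the methylsterol monooxygenase that starts the later of the demethylations, at carbon C4 of the sterol ring, read 353, 127 and 197 untreated and 1800, 744 and 1640 treated in control cells. In knockout cells it read 324, 352 and 227 untreated and 2350, 2040 and 1860 treated. The lowest treated array exceeded the highest untreated array in each genotype. The changes were 2.57 ± 0.34 (adjusted p = 0.00249, 5.95-fold) and 2.76 ± 0.34 (adjusted p = 0.00127, 6.75-fold). They stayed past the threshold in all 24 alternatives, and the second Msmo1 probe set passed in both genotypes at 2.04 ± 0.39 and 2.62 ± 0.39.

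Fdft1, the squalene synthase and first enzyme committed to sterols, read 339, 961 and 385 untreated and 1230, 3590 and 1450 treated in control cells. It read 375, 806 and 447 untreated and 1420, 4840 and 1850 treated in knockout cells. Levels were highest on date 2 in all 4 groups, yet treated and untreated arrays did not overlap. The changes were 1.86 ± 0.20 (adjusted p = 0.00117) and 2.16 ± 0.20 (adjusted p = 0.00039). Both calls were lost without the date block (adjusted p = 0.196 and 0.0835) and in no other alternative. The Fdft1 probe set is of a kind that can cross-hybridise, and a second set had 1.35 and 1.87 (adjusted p over probe sets = 0.0503 and 0.0102).

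Cyp51, the lanosterol demethylase, read 356, 307 and 237 untreated and 1020, 996 and 1150 treated in control cells, and 279, 228 and 437 against 898, 1320 and 1280 in knockout cells. Treated arrays were all far above the highest untreated array of their genotype. The changes of 1.79 ± 0.28 (adjusted p = 0.00596) and 1.88 ± 0.28 (adjusted p = 0.0035) passed in all 24 alternatives. A second Cyp51 probe set passed as well, at 1.55 ± 0.37 and 2.07 ± 0.37.

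Hsd17b7, the ketoreductase of sterol demethylation, read 265, 369 and 241 untreated and 693, 1850 and 909 treated in control cells. The knockout values were 198, 224 and 264 untreated and 391, 733 and 917 treated. The groups did not overlap, and the changes were 1.83 ± 0.31 (adjusted p = 0.00892) and 1.45 ± 0.31 (adjusted p = 0.0175). These values come from a probe set that can cross-hybridise, and the other 3 sets did not pass in either genotype. With such sets used only where no other passed, the changes were 0.86 and 0.96 (adjusted p = 0.265 and 0.181), and with the mean of all 4 sets 0.73 and 0.92 (0.181 and 0.0776). The control call was also lost without the untreated control array of date 3 (0.0555). The knockout call was lost without the untreated arrays of date 2 or 3 (0.0765 and 0.0565) or the treated array of date 3 (0.0819).

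Sqle, the squalene epoxidase and a known control point of the late branch, was called in knockout cells. It read 1100, 865 and 780 untreated and 1880, 2400 and 2570 treated there, and 1290, 635 and 1020 against 2480, 833 and 2420 in control cells. The treated control array of date 2 lay within the untreated values. The changes were 1.31 ± 0.35 (adjusted p = 0.0416) and, in control cells, 0.85 ± 0.35 (adjusted p = 0.179). The control value passed without date 2 (1.09, adjusted p = 0.0458) and without that treated control array alone (1.28, adjusted p = 0.0461). The knockout call was lost without any 1 array other than the treated control arrays of dates 2 and 3 and the treated knockout array of date 1, with adjusted p up to 0.17. It was also lost with a pseudocount of 1 (0.051), with no filter (0.0769) and with only the groups compared (0.051).

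Sc5d, a sterol desaturase near the end of the pathway, had 879, 598 and 935 untreated and 1370, 1210 and 2720 treated in knockout cells. In control cells it had 715, 443 and 1220 untreated and 1380, 540 and 2440 treated, with overlap through date 2. The changes were 1.06 ± 0.29 (adjusted p = 0.0434) and 0.74 ± 0.29 (adjusted p = 0.159). Leaving out the treated control array of date 2 brought the control value past the threshold (1.06, adjusted p = 0.0478). The knockout call was lost under the same 9 left-out arrays as that of Sqle, with adjusted p up to 0.187. A pseudocount of 1 (0.0513), no filter (0.0851) and only the groups compared (0.0727) ended it as well. A second Sc5d probe set had 1.27 ± 0.33 in knockout and 1.26 ± 0.33 in control cells (adjusted p over probe sets = 0.0402 and 0.0569). On that set treated and untreated arrays did not overlap in either genotype.

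The remaining late enzymes did not pass. Lss, the lanosterol synthase, had changes of 0.61 ± 0.20 and 0.50 ± 0.20 (adjusted p = 0.10 and 0.139), with the treated array higher on every date in both genotypes. The estimates for Ebp, the sterol isomerase, were -0.93 ± 0.47 and -0.48 ± 0.47. Tm7sf2, a sterol reductase, had -0.57 ± 0.24 and -0.24 ± 0.24, and Dhcr7, the reductase that completes cholesterol, -0.12 ± 0.26 and -0.69 ± 0.26 (lowest adjusted p of these 3 genes, 0.123). Nsdhl, a dehydrogenase of the demethylation steps, had -0.01 ± 0.34 and 0.14 ± 0.34, which turned to 0.04 and -0.12 without date 2. Estimates were thus of both signs within the branch: 10 of the 17 sterol enzymes were positive in control cells and 12 in knockout cells. Treated and untreated groups did not overlap for 7 members in control cells, all higher, and for 11 higher and 1 lower (Tm7sf2) in knockout cells, where 8.49% and 11% of all genes did not overlap upward and 7.45% and 9.93% downward.

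**Figure D2:**
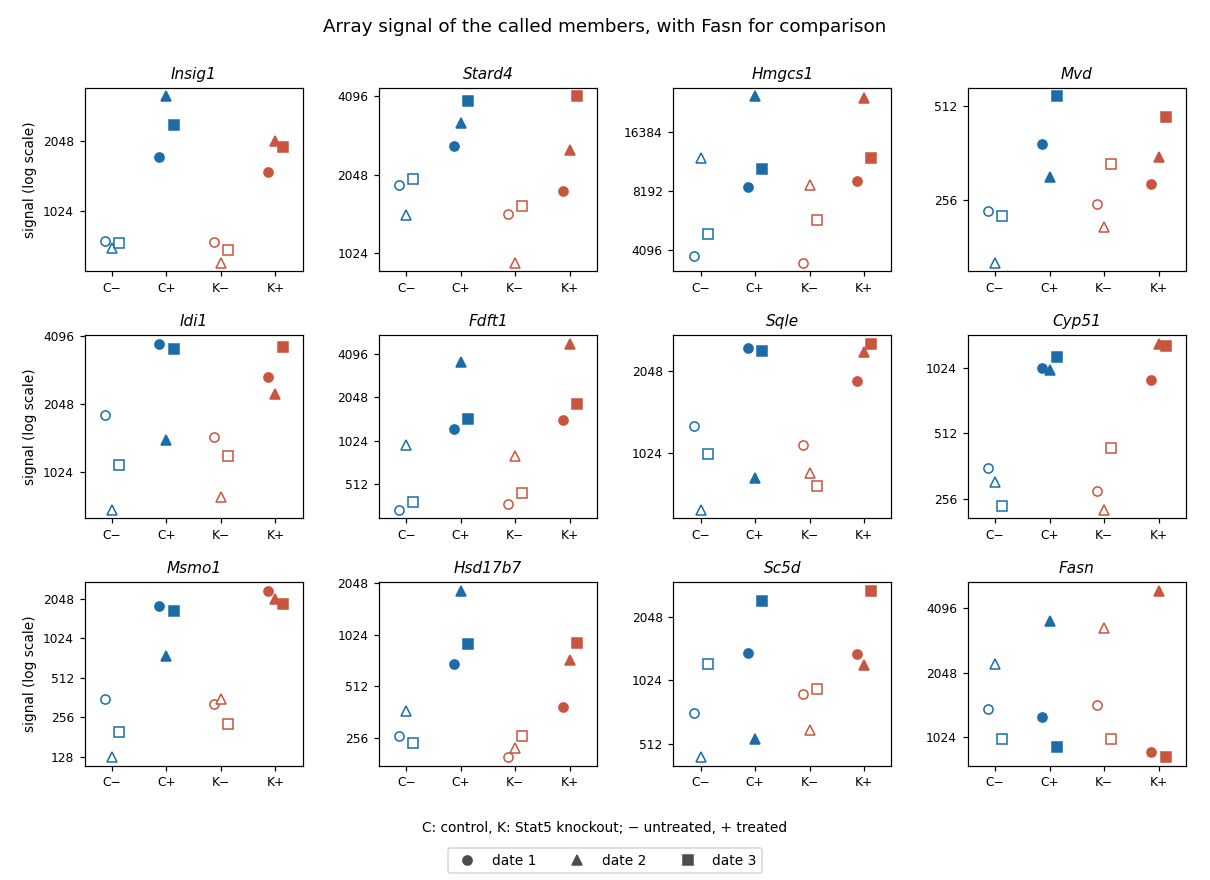
Array signal (vertical axis, log scale) of the 11 members called in either genotype and of Fasn, with 1 point per array. C is control and K knockout, minus untreated and plus treated, and the shape gives the date. For Insig1, Cyp51 and Msmo1 each treated array lies above all untreated arrays, while the spread of Fasn follows the date.

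In the fatty acid branch, Fasn, the synthase that builds palmitate, moved both ways. It read 1380, 2250 and 1000 untreated and 1270, 3570 and 919 treated in control cells, and 1450, 3320 and 998 against 871, 4950 and 821 in knockout cells. On date 2 the treated array was higher in both genotypes, and on dates 1 and 3 it was lower in both. The changes were 0.14 ± 0.31 (adjusted p = 0.832) and -0.14 ± 0.31 (adjusted p = 0.814), and without date 2 they were -0.12 and -0.50 (adjusted p = 0.756 and 0.149).

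Acaca, the acetyl-CoA carboxylase that sets the rate of the branch, read 887, 1640 and 776 untreated and 774, 1880 and 535 treated in control cells. Its knockout values were 909, 1750 and 810 untreated and 615, 1320 and 493 treated. The treated knockout array was the lower on each date, though the groups overlapped. The changes were -0.17 ± 0.21 (adjusted p = 0.676) and -0.55 ± 0.21 (adjusted p = 0.117).

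The other enzymes of the branch did not pass either. Acly, which supplies cytosolic acetyl-CoA to both branches, had 0.26 ± 0.27 and -0.08 ± 0.27, from a probe set that can cross-hybridise. The other tested Acly sets disagreed, and none was called. They had -0.467 ± 0.402 and -0.446 ± 0.402, -0.703 ± 0.553 and -0.0769 ± 0.553, and 1 ± 0.48 and 0.661 ± 0.48. Me1, the malic enzyme that supplies NADPH, had 0.44 ± 0.38 and 0.99 ± 0.38, with adjusted p-values of 0.539 and 0.124. Scd2, a stearoyl-CoA desaturase, had -0.68 ± 0.44 and 0.10 ± 0.44. Its sign in knockout cells turned to -0.23 without date 2.

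Elovl6, the elongase of palmitate, had -0.56 ± 0.23 and -0.70 ± 0.23, the lowest adjusted p-values of the branch (0.177 and 0.0799). Its probe sets disagreed: another set had 1.07 ± 0.33 and 1.11 ± 0.33 (adjusted p over probe sets = 0.094 and 0.0644), and with the mean of its sets the sign turned to 0.16 and 0.04. Fads1 and Fads2, desaturases of polyunsaturated fatty acids, had positive estimates from the probe set used for each gene. Fads1 had 0.63 ± 0.40 and 1.09 ± 0.40, and Fads2 0.75 ± 0.50 and 1.07 ± 0.50. A second Fads2 set had -0.37 ± 0.34 and 0.48 ± 0.34 (adjusted p over probe sets = 0.59 and 0.421). In knockout cells Fads1 came past the threshold without the treated array of date 1 (1.69, adjusted p = 0.00903) and with the mean of its 2 sets (1.24, adjusted p = 0.0283), where the second set alone had 1.39 ± 0.36 (adjusted p over probe sets = 0.0399). The count of 0 called fatty acid enzymes thus holds for the tested probe set of each gene, with Fads1 in knockout cells as the exception under these alternatives.

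Set side by side on each date, the 2 branches moved by different amounts. The mean log2 signal of the 17 sterol enzymes was higher on the treated array by 0.67, 0.49 and 0.90 on dates 1 to 3 in control cells and by 0.61, 0.94 and 0.77 in knockout cells. The mean of the 8 fatty acid enzymes differed by 0.01, 0.21 and 0.07 in control cells and by -0.27, 0.60 and 0.34 in knockout cells. For the regulators the differences were 0.39, 0.53 and 0.67, and 0.35, 0.78 and 0.60. All genes together moved by between -0.03 and 0.08. The sterol mean moved more than the fatty acid mean on each of the 3 dates in both genotypes. The fatty acid median over the fit was not stable in sign: without date 2 it was -0.02 in control and -0.20 in knockout cells, while that of the sterol enzymes was 0.96 and 0.57. No test was made on these means, since the members were chosen with earlier results of these data known.

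**Figure D3:**
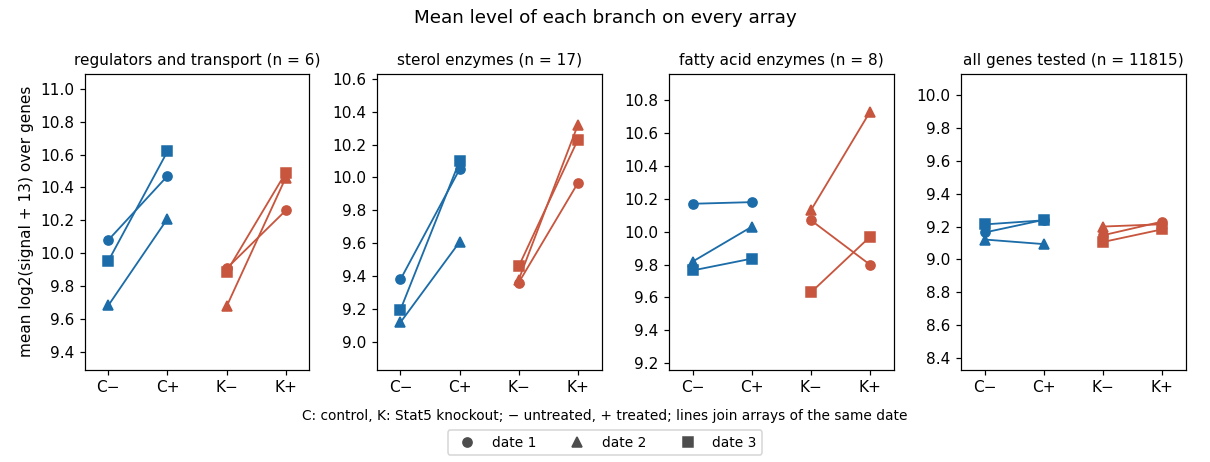
Mean log2(signal + 13) of the regulators, sterol enzymes, fatty acid enzymes and all genes tested (vertical axes, each spanning the same range) on every array, with lines joining the untreated (minus) and treated (plus) array of a date in control (C, blue) and knockout (K, red) cells. Lines of the sterol panel all climb, by 0.49 to 0.94, whereas those of the fatty acid panel run from -0.27 to 0.60.

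The response of the members to treatment was not shown to differ between genotypes. The difference of responses, knockout minus control, was called for 0 of the 31 members and 0 of all genes (0%), with 0 members and 2.54% of all genes at an unadjusted p under 0.05. For Msmo1 it was 0.18, with a 95% confidence interval from -0.88 to 1.24. The interval for Cyp51 ran from -0.80 to 0.97 around 0.09, that for Insig1 from -1.04 to 0.49 around -0.27, and that for Fdft1 from -0.34 to 0.94 around 0.30. On each side of the estimate that interval extended by 0.904 in the median over all genes. The adjusted threshold asks for more, since no gene passed it at all, and a difference of responses among the members is therefore neither shown nor limited beyond these intervals. The widest member intervals belonged to Fdps (-0.85 to 2.46) and Fads2 (-1.23 to 1.89), which had the low date 2 signals given above or, for Fads2, 7.91 and 37 on the control arrays of date 2.

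**Figure D4:**
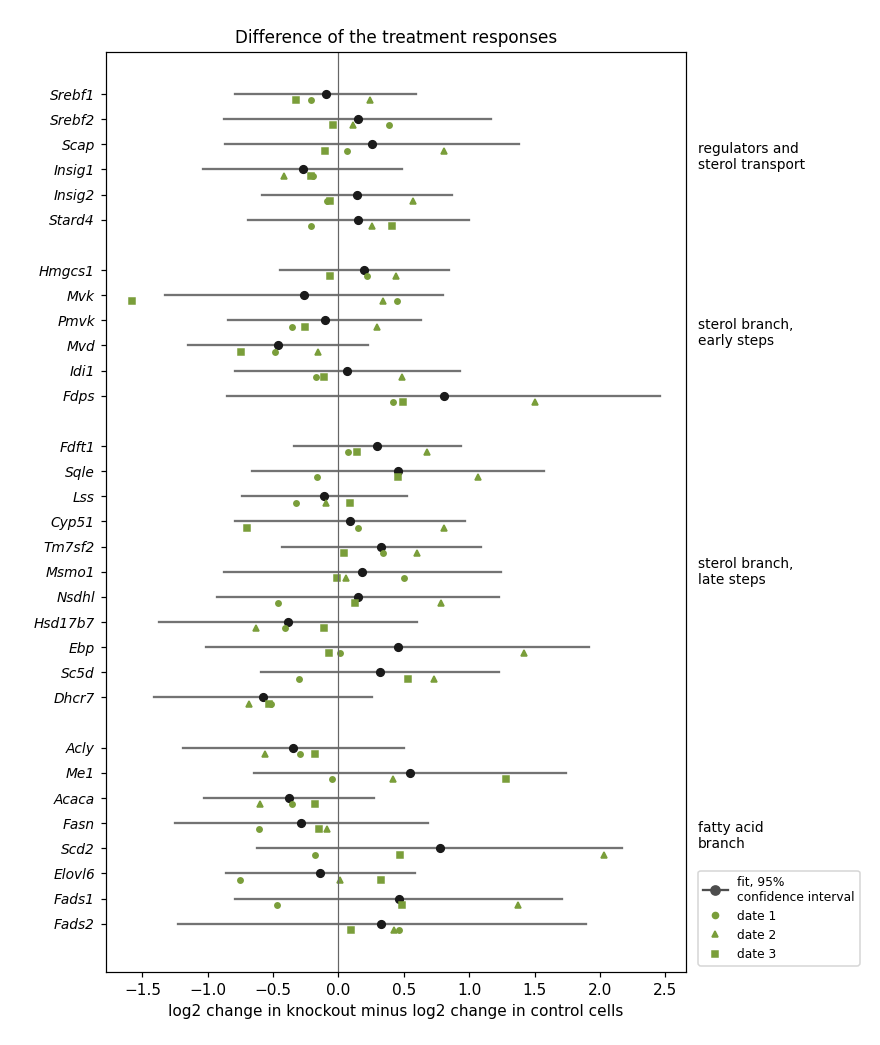
Difference of the treatment responses (horizontal axis, log2 change in knockout minus log2 change in control cells) for the 31 tested members, with the 95% confidence interval of the fit as a grey line and the value of each date as a green symbol below it. Every interval includes 0, and the triangles of date 2 lie farthest out for several genes, such as 2.03 for Scd2 and 1.5 for Fdps.

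Knockout and control cells did not differ in any member at the adjusted threshold. Without treatment 0 members were called, where 0.0169% of all genes were, and Mvk alone had an unadjusted p under 0.05, as had 2.23% of all genes (0.95 ± 0.34 higher in the knockout, adjusted p = 1). With treatment 0 members were called, where 0.11% of all genes were, and 3 had an unadjusted p under 0.05, as had 9.52% of all genes. These were Fdps (1.47 ± 0.53, adjusted p = 0.518), Lss (-0.45 ± 0.20, adjusted p = 0.523) and Hsd17b7 (-0.71 ± 0.31, adjusted p = 0.523). The treated knockout arrays of Fdps read 1580, 1230 and 1710 and the treated control arrays 1050, 110 and 1220, without overlap. Fdps and Msmo1 were the 2 members whose treated knockout arrays all lay above the treated control arrays, as for 2.37% of all genes. Without date 2 the Fdps difference was 0.53 (adjusted p = 0.664). Insig1, the most stable regulator, differed by -0.11 ± 0.24 without and -0.38 ± 0.24 with treatment.

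Genes of the same pathways outside the members were counted from 3 further lists. Of 8 tested other sterol genes, which include the SREBP proteases Mbtps1 and Mbtps2 and the ubiquitin ligase gene Rnf139, 0 were called in either genotype, with medians of -0.06 and 0.10. Of 17 tested other fatty acid genes, Elovl7 and Lpin1 rose in control cells and Acsl4 and Lpin1 in knockout cells, and none fell. Over all genes, beside which both lists stand, 4.37% were called higher and 2.62% lower in control cells. In knockout cells these shares were 6.89% and 4.65%. Lpin1, a phosphatidate phosphatase of lipid synthesis, changed by 1.49 ± 0.37 (adjusted p = 0.042) and 2.33 ± 0.37 (adjusted p = 0.00478). Its control call was lost without any 1 control array or the knockout arrays of date 3 (adjusted p up to 0.165). It was also lost with a pseudocount of 1 (0.0537), no filter (0.0798), quantile normalization (0.0702) and the mean of its probe sets (0.0542). Acsl4, a long-chain acyl-CoA synthetase, read 794, 630 and 1270 untreated and 1220, 1280 and 2560 treated in knockout cells, with overlap. In control cells, where it was not called, it read 1190, 977 and 1490 untreated and 1540, 2290 and 2640 treated, without overlap. Its change in knockout cells was 0.88 ± 0.24 (adjusted p = 0.0442). That call was lost without any 1 array other than the treated control array of date 2, or without all of date 2 (adjusted p up to 0.165). Centred arrays (0.0951), no filter (0.0909) and only the groups compared (0.0767) ended it as well.

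Elovl7, an elongase of long-chain fatty acids, was the gene of these lists in which the genotypes were farthest apart. It read 358, 634 and 257 untreated and 1060, 3110 and 1150 treated in control cells. In knockout cells it read 385, 489 and 195 untreated and 147, 444 and 241 treated. Treated control arrays were above all others, and treated knockout arrays overlapped the untreated ones. The changes were 1.97 ± 0.30 (adjusted p = 0.00546) in control and -0.39 ± 0.30 (adjusted p = 0.457) in knockout cells. Their difference was -2.36, with a 95% confidence interval from -3.30 to -1.41, which did not pass over all genes (unadjusted p = 0.000249, adjusted p = 0.829). With treatment the log2 difference of knockout from control was -2.57 ± 0.30 (adjusted p = 0.0194). Its probe set is of the kind that can cross-hybridise. That call was lost without date 2 (-2.47, adjusted p = 0.176) and without any 1 of the treated control arrays of dates 2 and 3 (0.113 and 0.0947) or the 3 treated knockout arrays (0.0796, 0.129 and 0.0717). It was lost too with a pseudocount of 1 (0.0545) and with only the groups compared (0.15).

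Of 8 tested genes of sterol export and storage, 0 were called in control cells and 3 rose in knockout cells, beside 6.98% and 11.5% of all genes called. At an unadjusted p under 0.05 there were 4 of the 8 higher in each genotype and 0 lower. Of all 11815 genes, 1396 were higher and 1357 lower at that mark in control cells, and 1630 and 1597 in knockout cells. Abca1, the cholesterol exporter, changed by 1.69 ± 0.31 (adjusted p = 0.00875), from 199, 329 and 189 untreated to 811, 946 and 616 treated. In control cells it went from 209, 187 and 348 to 572, 477 and 503, a change of 1.07 ± 0.31 (adjusted p = 0.066). That control value passed without the untreated control array of date 3 (1.44, adjusted p = 0.0399), with quantile normalization (0.0395), with centred arrays (0.0498) and with a larger pseudocount (0.0498). Npc1, which moves sterol out of late endosomes, changed by 1.44 ± 0.35 in knockout cells (adjusted p = 0.0278). It went there from 305, 147 and 260 untreated to 377, 828 and 833 treated, without overlap. In control cells, where it was not called, it went from 342, 284 and 303 to 585, 442 and 798, also without overlap. Ch25h, which makes hydroxycholesterol, was dim, with 3.92, 97.9 and 31.7 untreated and 323, 157 and 99.1 treated in knockout cells. Its change there was 2.08 ± 0.57 (adjusted p = 0.0422), and 1.23 without the treated array of date 1, 1.45 without the untreated array of date 1 and 1.38 with a pseudocount of 50. The medians of the list were 0.69 and 0.83. Abca1 lost its knockout call without the untreated knockout array of date 3 (adjusted p = 0.05), and Npc1 without date 2 (0.96, adjusted p = 0.112) or without the untreated or treated knockout arrays of date 2 or 3 (adjusted p up to 0.112), with no filter (0.0535) and with only the groups compared (0.103). Ch25h lost it without any 1 array other than the treated control and the untreated knockout array of date 2 (adjusted p up to 0.155), and its control value of 1.52 passed without the treated knockout array of date 1 (adjusted p = 0.0338 against 0.14) and with only the groups compared (0.0399). The Ch25h call was lost as well with a pseudocount of 1 (0.0615), no filter (0.0732) and only the groups compared (0.137). Without the date block, Lpin1 and Abca1 in knockout cells were the only calls of these 3 lists to pass. Differences between genotypes in the tested genes of sterol export and storage were not called.

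Markers of blood cell types were read beside these changes. The 10 markers of granulocyte-macrophage progenitors were all tested and none was called on treatment, but 9 of the 10 had negative estimates in each genotype, with medians of -0.35 and -0.44. At an unadjusted p under 0.05 there were 3 lower in control and 1 lower in knockout cells, beside 1357 and 1597 of all 11815 genes. Of those 11815 genes, 6191 had negative estimates in control and 6108 in knockout cells, and 6.98% and 11.5% were called. Cd34 had -1.25 ± 0.45 and -0.58 ± 0.45 (adjusted p = 0.13 and 0.456), and Ms4a3 -0.78 ± 0.59 and -1.87 ± 0.59 (adjusted p = 0.48 and 0.0709). Mpo, the 1 marker with positive estimates (0.45 and 0.16), read 15300 to 112000 over the arrays. The summed signal of the list was 85700 to 180000 untreated and 74400 to 222000 treated in control cells, and 80600 to 185000 against 75100 to 125000 in knockout cells. Of the macrophage list 4 of 7 were tested and none was called. Their summed signal was 7620 to 27400 untreated and 11900 to 41700 treated in control cells, and 8450 to 23700 against 11900 to 31900 in knockout cells, while C1qa and C1qb did not pass the filter. Csf1r carried most of that sum, and the markers did not move together: 3 of 4 were higher in control cells (median 0.57) and 2 of 4 in knockout cells (median 0.02). Adgre1 had 0.58 ± 0.26 in control and -0.74 ± 0.26 in knockout cells, and Mrc1 1.13 ± 0.35 and -0.30 ± 0.35. The differences of their responses were -1.32 and -1.43, with unadjusted p of 0.00434 and 0.0159 and adjusted p of 1 over all genes in limma. Mast cell and basophil markers, 3 of 3 tested, summed to 3510 to 5340 untreated and 1720 to 2660 treated in control cells. In knockout cells they summed to 3620 to 4480 untreated and 1680 to 3520 treated. Cpa3 was called lower in knockout cells (-1.23 ± 0.34, adjusted p = 0.0449). Its estimate in control cells was -1.28 and was not called. Of 6 erythroid markers 4 were tested, 2 with positive and 2 with negative estimates in each genotype, and Hba-a1 did not pass. The list summed to 1080 to 1190 untreated and 1000 to 6770 treated in control cells, and to 627 to 1040 against 925 to 3190 in knockout cells. Car1 was called lower in control cells (-1.21 ± 0.26, adjusted p = 0.0243). Its estimate in knockout cells was -0.853 and was not called. Car2 had 1.49 ± 0.50 and 1.39 ± 0.50 (adjusted p = 0.107 in both), with 917, 635 and 735 untreated against 6520, 719 and 2080 treated in control cells. Nkg7, the 1 tested marker of 4 for T and NK cells, had -1.42 and -1.47 (adjusted p = 0.0866 and 0.061), with Cd3e and Cd3g not passing. Of the adipocyte list 1 of 4 was tested (Fabp4), and Adipoq and Cidec did not pass. The calls of Cpa3 and Car1 were not recomputed with arrays left out, and the part of these shifts in the changes of the sterol genes was not tested.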

How the data were processed

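RNA from 12 samples had been measured on single-colour Affymetrix mouse arrays. The deposited values are MAS5 intensities on a linear scale, per the submitters' processing notes, and their trimmed means (2% at each end) lie between 500.003 and 500.004. The version and the scaling target are not given in the sources used here. Groups and array dates came from the labels. Array intensity carries no count of molecules, so the number of arrays limits the precision. The 95% interval of a treatment effect reached a median of 0.639 (log2) to either side.

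Values were analysed as log2(intensity + 13), where 13 is the 20th percentile of all values, so fold changes of dim genes are understated. Of 45101 probe sets, 34945 had 1 gene symbol in the platform annotation, 932 had several, 9160 had none and 64 were controls. Sets with 1 symbol were kept where at least 3 arrays exceeded the overall median (70.5), and the set with the highest mean stood for a gene. The model of limma 3.58.1 (R 4.3.3) held 4 groups and the array date, with 6 residual and 4.03 prior degrees of freedom. Benjamini-Hochberg adjustment ran over 11815 genes, or over 21363 probe sets in a separate fit. The fit was tested on simulated data. Figures were drawn with Python 3.11.15 and matplotlib 3.10.9.

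The date paired the arrays: deviations from group means correlated at 0.357 to 0.755 in the 18 pairs of the same date and at -0.656 to 0.396 in the 36 pairs of different dates. On date 2 the title and source name of the treated knockout array carry a tag that differs from that shared by the other arrays of its date. What the tag stands for is not given, so the knockout pair of date 2 may differ in more than treatment. Members and lists were chosen with earlier results of these data known. Every member is accounted for, with values on all arrays for called members and for Srebf1, Srebf2, Insig1, Hmgcs1, Fasn and Acaca, and values of other listed genes for those called. Genes singled out beyond that (Fdps, Mpo, Cd34, Ms4a3, Csf1r, Adgre1, Mrc1, Car2, Nkg7 and Fabp4) were chosen after their values were seen. Alternatives were the block, pseudocount, filter, scaling, probe set, arrays and variance prior. The one that sets cross-hybridising probe sets aside was chosen after seeing the data. Some listed genes are not reported here. Promoters are those of RefSeq on GRCm38.p6.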

Additional observations from a re-analysis of the deposited data

Results flagged for a closer look

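The 31 tested members and the 8, 17 and 8 tested genes of the wider lists were searched for opposite responses. In 2 genes, both of the wider fatty acid list, every date moved one way in control cells and the opposite way in knockout cells. The share of all genes that did so was not counted, so no excess is shown. Elovl1, an elongase of long-chain fatty acids, had treatment changes of 0.02, 0.62 and 0.13 on dates 1 to 3 in control cells and of -0.11, -0.70 and -0.17 in knockout cells. The difference of its responses was -0.58 ± 0.33 (SE, limma, adjusted p = 1), from a probe set that can cross-hybridise. Mlycd, the malonyl-CoA decarboxylase, had -0.56, -0.15 and -0.07 in control cells and 0.26, 0.16 and 0.14 in knockout cells. The difference of its responses was 0.45 ± 0.35 (adjusted p = 1). Neither difference passed the test.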

How the results depend on the processing

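Without the replicate block of array date, the count of members called higher was 3 in control and 3 in knockout cells, against 8 and 10 with it, and the count of called member probe sets was 4 and 7, against 11 and 18. Calls over all genes fell from 825 to 175 in control and from 1363 to 315 in knockout cells, and to 458 and 830 with no filter on low values. With 1 array left out they went as low as 278 and 512. Treated knockout against treated control gave 13 calls, 1 without the block, 2 with a pseudocount of 1 and 5 with no filter. It gave 0 without the treated control array of date 3 or the treated knockout array of date 2 or of date 3. Leaving out each array in turn gave 4 to 10 members in control and 5 to 11 in knockout cells, and with only the groups compared there were 5 in control cells. The sterol median in knockout cells then ranged from 0.501 to 1.12, and the fatty acid median of the untreated genotype comparison from -0.147 to 0.0784. Among the regulators, the median difference of responses was -0.101 with the mean of probe sets and ran from -0.0817 to 0.257 with an array left out. Their median between untreated genotypes ran from -0.17 to 0.00331. Between treated genotypes it was -0.151 with centred arrays, -0.193 without date 2, and -0.208 to 0.103 with an array left out. Centring moved the median of all genes there from -0.01 to -0.12. No called value changed sign. Of 26 called values of members and listed genes, 11 passed in every fit with an array left out and 8 without the block. The causes were not tested.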
